A study of Mus musculus with 10 samples.

Results

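The genes described here are 10 that build or control the interstitial matrix of the kidney, the scaffold between tubules and vessels that thickens in fibrosis. They were taken by gene name from a table of 55952 genes, and all 10 were found: Col1a1, Col1a2, Col3a1, Col6a1, Fn1, Dcn, Bgn, Sparc, Fbn1 and Tgfb1. Kidney RNA came from C57BL/6 mice, an inbred laboratory strain, kept for 30 days either at 4200 m (hypoxia, 5 libraries) or at 400 m (control, 5 libraries). The labels name no transgene or agent in either group, and age and sex are not stated. RNA abundance was measured by bulk RNA sequencing and deposited as FPKM, fragments scaled to gene length and library size. The length used for each of the 10 genes is that of all its annotated exons together, 12426 bases for Col1a2 and 6563 for Col1a1. Levels of different genes thus compare only per annotated base, and the length of the RNA present was not measured. The design text states that kidneys were damaged at altitude, and the question here is which matrix genes were higher or lower at 4200 m. Altitude and housing site cannot be told apart.

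Fibrillar collagens are rod-like triple helices that give interstitial tissue its tensile strength, and fibroblasts and pericytes make most of them in the kidney. Decorin and biglycan coat these fibrils, fibronectin and fibrillin-1 form the meshwork on which other components assemble, and SPARC binds collagen outside the cell. TGF-β1 is secreted in a latent form, is released by integrins and proteases, and signals through SMAD proteins to raise the transcription of collagen and fibronectin genes. It is known for driving fibrosis after kidney injury.

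Col1a1 was the only one of the 10 genes that passed the test across all genes, and it was lower in hypoxia. Genes were tested with limma on log2(FPKM + 0.5), with Benjamini-Hochberg adjustment over every gene averaging 0.5 FPKM or more and a threshold of 0.05. All 10 passed that filter, with at least 286 reads in every library. Of the 10, 0 were higher, 1 was lower and 9 did not pass. Across the 15264 genes tested, 11.5% passed, 3.66% as higher and 7.79% as lower, so 1 of 10 was close to the share of all genes. At an unadjusted p under 0.05 the count was also 1 of 10, against 29.2% of all genes. Limma voom on recovered reads called 0 of 10, against 1709 of the 15264 genes tested (782 higher, 927 lower). Without hypoxia replicates 4 and 5, again 0 were higher and 1 was lower, where 12.3% of all genes passed (4.53% higher, 7.75% lower) and 28.4% had an unadjusted p under 0.05. The groups overlapped in level for all 10 genes, while for 14.2% of all genes they did not (5.68% higher, 8.54% lower). The median log2 fold change of the 10 genes was 0.085, against 0.012 over all genes tested. Without hypoxia replicates 4 and 5 it was -0.037, against -0.00046 over all genes in that fit.

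Marker genes of other tissues were high in some hypoxia libraries. Each library held 16561672 to 17845464 reads assigned to genes. Hypoxia replicate 4 held adrenal cortex genes, which summed to 1052 FPKM over 7 markers against 0.920 to 1.55 FPKM in controls, and fat genes, which summed to 627 FPKM over 6 markers against 48.8 to 140.9 FPKM in controls. Hypoxia replicate 5 held B cell genes, which summed to 356 FPKM over 6 markers against 1.15 to 1.87 FPKM in controls, macrophage genes at 288 FPKM over 6 markers against 47.2 to 62.3 FPKM, and digestive enzymes of the pancreas at 34.3 FPKM over 6 markers against 0 to 0.0680 FPKM. Proximal tubule markers, which define the main tissue, summed to 580 to 1381 FPKM over 5 genes in hypoxia and to 1103 to 1635 FPKM in controls, with the lowest value in hypoxia replicate 5. Among controls, replicate 4 was high in urothelium markers, at 35.7 FPKM over 5 genes against 6.87 to 15.8 FPKM in the other controls, while hypoxia libraries had 3.37 to 10.8 FPKM. Macrophage markers also reached 80.0 FPKM in hypoxia replicate 4, and adrenal cortex markers 14.2 FPKM in hypoxia replicate 5. The comparisons of the 10 genes are also given without hypoxia replicates 4 and 5. The remaining hypoxia libraries, replicates 1 to 3, were not free of such differences. Their B cell markers summed to 2.12 to 2.46 FPKM, above every control, while their macrophage markers, at 42.4 to 59.0 FPKM, overlapped with controls. The labels' extraction protocol names the retina, but 6 retina markers summed to at most 0.656 FPKM in any library, and Rcvrn and Crx were listed at 0 in all 10.

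**Figure D1:**
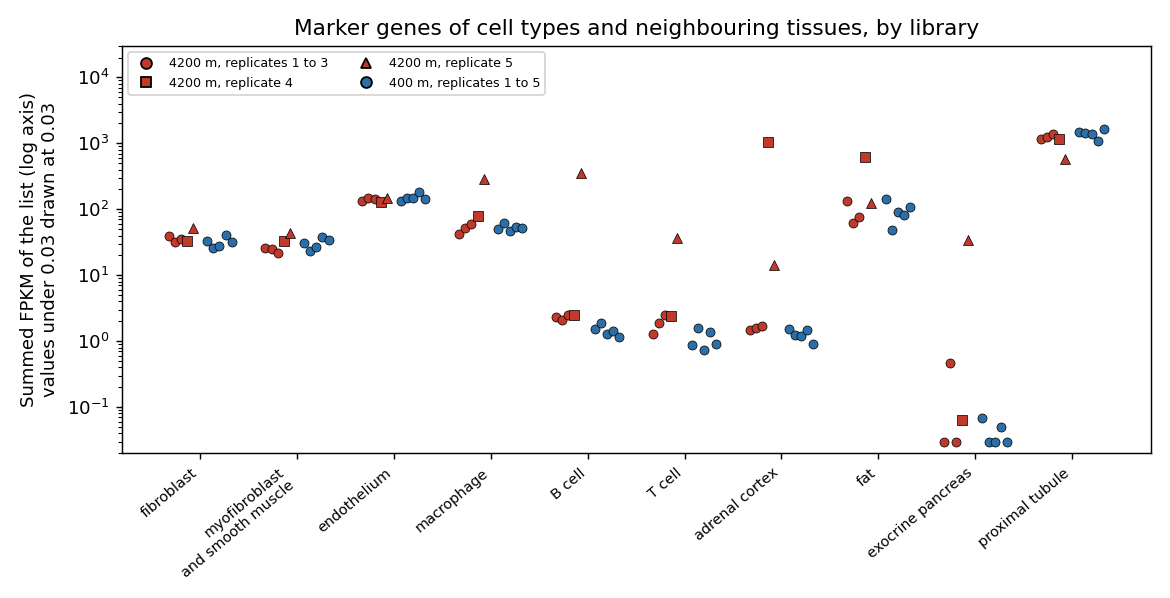
Summed FPKM of marker genes (log axis) for each library, with hypoxia libraries in red to the left of control libraries in blue. Hypoxia replicate 4 (square) stands at 1052 FPKM for adrenal cortex markers and hypoxia replicate 5 (triangle) at 356 FPKM for B cell markers. Fibroblast markers span 31.4 to 51.6 FPKM in hypoxia and 25.9 to 40.7 FPKM in control, and Thy1 alone gave 10.8 FPKM in hypoxia replicate 5.

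Upstream sequence is shown for Col1a2 and Col3a1, which had the most similar profiles of any pair of the 10 genes, and for Tgfb1, which stood apart in a single library. RefSeq windows on GRCm38.p6 were found for 7 of the 10 genes and not for Col1a1, Fn1 and Dcn. Each line gives the 250 bases before the RefSeq start on the plus strand, 5′ to 3′, with capitals where CCAAT or a TATA box (TATAAA) or a hypoxia core (ACGTG or its variant GCGTG) was found on either strand. The windows are chr6:4505368-4505617 for Col1a2, chr1:45311288-45311537 for Col3a1 and chr7:25686752-25687001 for Tgfb1.
Col1a2: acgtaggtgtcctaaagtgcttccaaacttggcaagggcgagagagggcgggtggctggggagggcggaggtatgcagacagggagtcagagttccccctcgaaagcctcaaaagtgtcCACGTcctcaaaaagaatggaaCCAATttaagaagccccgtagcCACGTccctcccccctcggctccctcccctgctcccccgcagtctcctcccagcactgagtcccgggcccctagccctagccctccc
Col3a1: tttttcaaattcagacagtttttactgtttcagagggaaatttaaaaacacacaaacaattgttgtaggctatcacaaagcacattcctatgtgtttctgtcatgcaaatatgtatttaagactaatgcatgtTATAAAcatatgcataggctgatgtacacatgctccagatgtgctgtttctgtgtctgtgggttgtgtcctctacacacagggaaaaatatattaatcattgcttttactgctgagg
Tgfb1: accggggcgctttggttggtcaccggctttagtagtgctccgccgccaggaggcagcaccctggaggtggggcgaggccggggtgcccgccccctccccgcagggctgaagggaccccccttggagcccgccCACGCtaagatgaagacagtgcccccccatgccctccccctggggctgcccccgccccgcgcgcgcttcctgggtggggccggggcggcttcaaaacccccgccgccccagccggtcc
The Col1a2 window held 1 CCAAT, the motif bound by the factor NF-Y, and 2 copies of CACGT, the reverse complement of ACGTG, the core to which hypoxia-inducible factors can bind. The Tgfb1 window held 1 CACGC, the reverse complement of GCGTG, and the Col3a1 window held a TATAAA and neither hypoxia core. Of the 7 windows, 3 held ACGTG or GCGTG on either strand, those of Col1a2, Bgn and Tgfb1, against 38.6% of all 32851 windows cut to the same length. CCAAT occurred in 1 of 7 windows and in 33.8% of all windows, GGGCGG in 4 of 7 and 32.7%, and TATAAA in 1 of 7 and 12.4%. The CACGC of Tgfb1 shared its first base with a GC box (GGGCGG on the other strand). These matches describe letters in the windows and say nothing of binding in these kidneys, and the RefSeq starts of Col1a2, Fbn1 and Sparc lie 804, 1555 and 3103 bases downstream of the starts given in the deposited table.

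Type I collagen, the most abundant fibrillar collagen, is assembled from the chains encoded by Col1a1 and Col1a2. Col1a1 (ENSMUSG00000001506, chromosome 11 from 94936224 to 94953042, GRCm38) was at 9.997, 8.18, 9.23, 6.34 and 10.6 FPKM in hypoxia replicates 1 to 5, against 14.1, 12.3, 10.4, 14.4 and 15.4 FPKM in control replicates 1 to 5. The groups met at a single point, since the highest hypoxia library, replicate 5, lay just above the lowest control library, replicate 3. The means were 8.86 ± 1.67 FPKM in hypoxia and 13.3 ± 1.97 FPKM in control (SD, n = 5 each). Col1a1 thus had a log2 fold change of -0.57 with an SE of 0.143 (limma adjusted p = 0.0310). On the linear scale this was 0.674-fold, with a 95% interval of 0.541- to 0.840-fold. In bulk tissue, fewer collagen-making cells and less collagen RNA per cell cannot be told apart.

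The call of Col1a1 was near the threshold. Without hypoxia replicates 4 and 5 it held, at a log2 fold change of -0.51 (adjusted p = 0.0298), and the 3 remaining hypoxia libraries lay below all 5 controls. That made 1 of 10 genes without overlap, against 21.5% of all genes in that fit (9.73% higher, 11.8% lower). It was lost without hypoxia replicate 2, 3 or 4 and without control replicate 1, 2, 4 or 5, with adjusted p from 0.0510 to 0.0781 and log2 fold changes from -0.59 to -0.46. It was also lost after rescaling that left out the 100 most abundant genes (-0.50, adjusted p = 0.0526) and in limma voom on recovered reads (-0.53, adjusted p = 0.0599). Hypoxia replicate 4, with its adrenal and fat genes, was the lowest library for Col1a1, and the part of those tissues in this value was not tested.

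Col1a2 (chromosome 6 from 4504814 to 4541544) was at 9.35, 7.92, 7.99, 6.97 and 10.1 FPKM in hypoxia replicates 1 to 5, against 10.5, 9.39, 8.23, 12.2 and 10.4 FPKM in control replicates 1 to 5. The groups overlapped, although 3 hypoxia libraries, replicates 2 to 4, were below every control. Its means were 8.47 ± 1.26 FPKM in hypoxia and 10.1 ± 1.46 FPKM in control (SD, n = 5 each), and the log2 fold change of -0.25 did not pass (SE 0.119, limma adjusted p = 0.200). The 95% interval ran from 0.703- to 1.01-fold, and the log2 fold change was again -0.25 when hypoxia replicates 4 and 5 were left out (adjusted p = 0.201).

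Type III collagen, encoded by Col3a1, forms thin fibrils together with type I. Col3a1 (chromosome 1 from 45311538 to 45349706) was at 12.8, 9.33, 10.2, 7.80 and 12.6 FPKM in hypoxia replicates 1 to 5, against 12.8, 12.3, 9.99, 13.9 and 14.7 FPKM in control replicates 1 to 5. The hypoxia values reached from below the lowest control to the middle of the controls. The log2 fold change was -0.27 (SE 0.144, limma adjusted p = 0.233), with a 95% interval of 0.664- to 1.03-fold, and -0.23 without hypoxia replicates 4 and 5 (adjusted p = 0.291). All 3 fibrillar collagen genes were lowest in hypoxia replicate 4 of all 10 libraries.

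**Figure D2:**
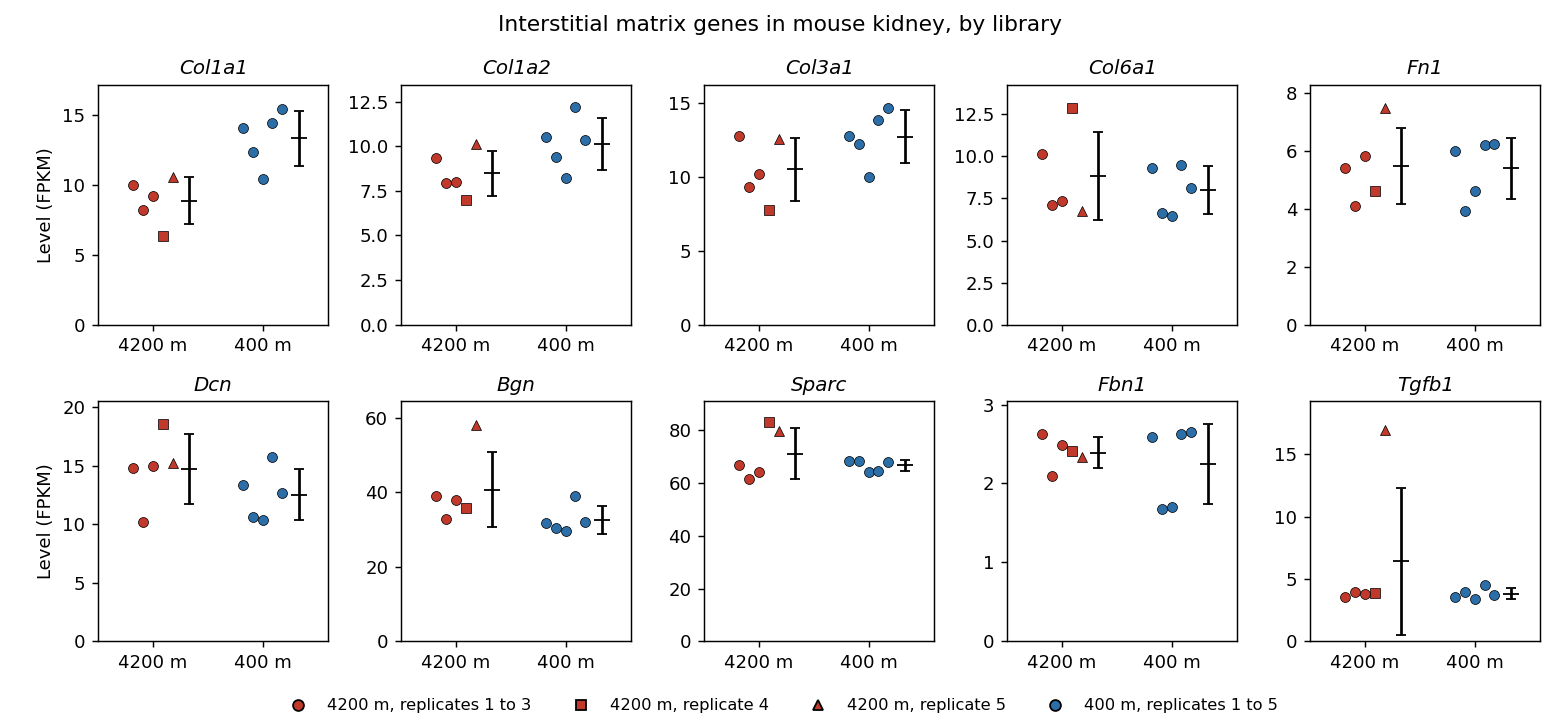
Level in FPKM of the 10 interstitial matrix genes in each library, with hypoxia (4200 m, red) left of control (400 m, blue) and black bars at mean ± SD over 5 libraries. Col1a1 is lower in hypoxia with a single crossing of the groups, and Tgfb1 is high in hypoxia replicate 5 alone, at 17.0 FPKM.

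Set against Col1a2 or Col3a1 of the same library, Col1a1 was lower in hypoxia than in control. The size of such a ratio depends on the annotated gene lengths, which are the same in every library. The ratio of Col1a1 to Col1a2, which does not depend on how the library was scaled, was 1.07, 1.03, 1.15, 0.909 and 1.04 in hypoxia replicates 1 to 5, against 1.34, 1.31, 1.27, 1.18 and 1.49 in control replicates 1 to 5. The ratio of Col3a1 to Col1a1 was 1.28, 1.14, 1.11, 1.23 and 1.19 in hypoxia replicates 1 to 5, against 0.910, 0.996, 0.960, 0.964 and 0.954 in control replicates 1 to 5. The groups did not overlap in either ratio, in the 5 hypoxia libraries or in replicates 1 to 3 alone. The means were 1.04 ± 0.0883 in hypoxia and 1.32 ± 0.112 in control for Col1a1 to Col1a2, and 1.19 ± 0.0676 in hypoxia and 0.957 ± 0.0305 in control for Col3a1 to Col1a1 (SD, n = 5 each). Both ratios contain Col1a1 and were not tested, so they are one description and not a pair of independent results. The ratios of Col6a1 to Col1a1 and of Bgn to Dcn overlapped between the groups. The share of all gene pairs without overlap was not computed.

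**Figure D3:**
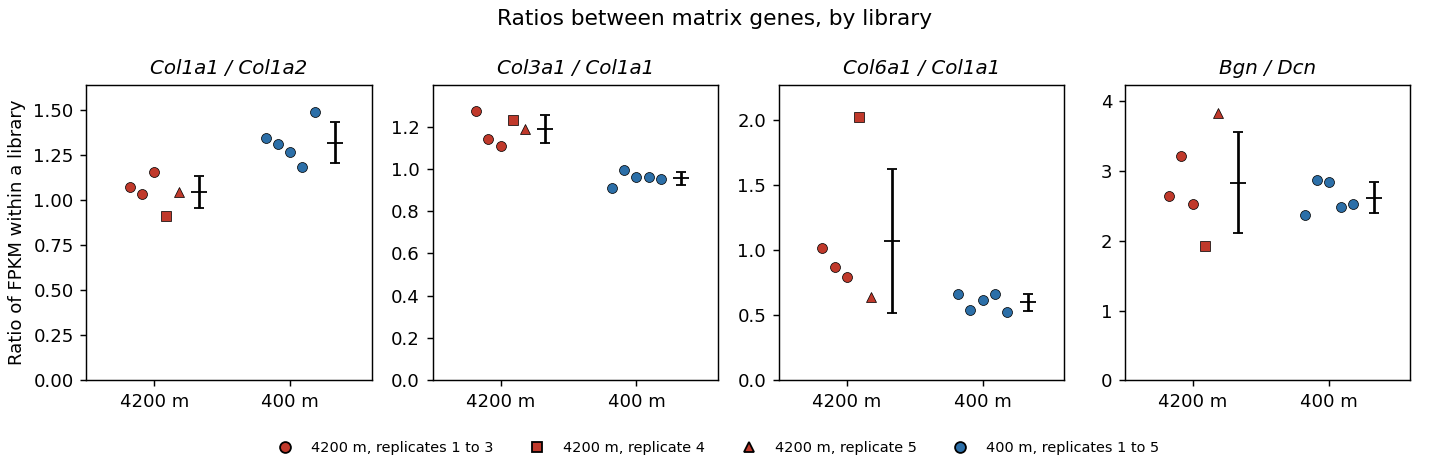
Ratio of FPKM values of gene pairs within each library, with hypoxia (red) left of control (blue) and black bars at mean ± SD over 5 libraries. The ratio of Col1a1 to Col1a2 spans 0.909 to 1.15 in hypoxia and 1.18 to 1.49 in control, and that of Col6a1 to Col1a1 is highest in hypoxia replicate 4, at 2.03.

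Type VI collagen forms beaded filaments around cells, and Col6a1 encodes one of its main chains. Col6a1 (chromosome 10 from 76708792 to 76726168) was at 10.1, 7.10, 7.35, 12.9 and 6.74 FPKM in hypoxia replicates 1 to 5, against 9.33, 6.66, 6.44, 9.50 and 8.09 FPKM in control replicates 1 to 5. Hypoxia replicate 4 was the highest of the 10 libraries, and the other hypoxia values lay within or just above the control range. Col6a1 gave a log2 difference of 0.11 (SE 0.182, limma adjusted p = 0.713), with a 95% interval of 0.816- to 1.43-fold, and 0.032 without hypoxia replicates 4 and 5. It turned to -0.030 without hypoxia replicate 4 alone. Col6a2 and Col6a3, which encode the partner chains and were chosen for mention after their values were seen, were at 2.66 and 2.20 FPKM in hypoxia replicate 4, within the control ranges of 2.16 to 3.34 and 2.13 to 3.31 FPKM. The ratio of Col6a1 to Col1a1 was 2.03 in that library, against 0.637 to 1.01 in the other hypoxia libraries and 0.525 to 0.663 in control.

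Fn1, which encodes fibronectin, a glycoprotein that links cells to collagen and is an early component of scar matrix, did not differ detectably. Fn1 (chromosome 1 from 71585520 to 71653200) was at 5.42, 4.08, 5.83, 4.601 and 7.48 FPKM in hypoxia replicates 1 to 5, against 6.01, 3.91, 4.62, 6.20 and 6.24 FPKM in control replicates 1 to 5. The values of the groups were interleaved, with hypoxia replicate 5 highest. Its log2 fold change was 0.015 (SE 0.168, limma adjusted p = 0.960), and the 95% interval of 0.781- to 1.31-fold bounds a change in either direction. It was -0.065 without hypoxia replicates 4 and 5 (adjusted p = 0.837), and its sign also turned without hypoxia replicate 3 or 5 and without control replicate 2 or 3.

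Dcn and Bgn encode decorin and biglycan, small leucine-rich proteoglycans that bind collagen fibrils, and decorin also binds TGF-β. Dcn (chromosome 10 from 97479609 to 97518143) was at 14.8, 10.2, 15.0, 18.5 and 15.2 FPKM in hypoxia replicates 1 to 5, against 13.3, 10.6, 10.4, 15.7 and 12.6 FPKM in control replicates 1 to 5. Its groups overlapped over most of their range, and hypoxia replicate 4 was highest. The log2 fold change was 0.22 (SE 0.156, limma adjusted p = 0.375), against 0.079 without hypoxia replicates 4 and 5 (adjusted p = 0.793).

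Bgn (chromosome X from 73483602 to 73495933) was at 39.1, 32.7, 38.0, 35.7 and 58.2 FPKM in hypoxia replicates 1 to 5, against 31.7, 30.5, 29.5, 39.0 and 31.9 FPKM in control replicates 1 to 5. All 5 hypoxia libraries were above 4 of the 5 controls, and control replicate 4 was the exception. Its log2 fold change of 0.30 did not pass (SE 0.146, limma adjusted p = 0.202, 95% interval 0.983- to 1.54-fold). Without hypoxia replicates 4 and 5 it was 0.17 (adjusted p = 0.303). Hypoxia replicate 5, the library with B cell and macrophage genes, gave the highest Bgn value, and the part of those cells in it was not tested. The ratio of Bgn to Dcn was 2.83 ± 0.722 in hypoxia and 2.62 ± 0.222 in control (SD, n = 5 each), with overlapping groups.

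Sparc encodes a secreted collagen-binding glycoprotein, and it was the most abundant of the 10 genes per length in both groups. Sparc (chromosome 11 from 55394500 to 55423183) was at 66.7, 61.6, 64.2, 83.1 and 79.6 FPKM in hypoxia replicates 1 to 5, against 68.3, 68.2, 64.1, 64.5 and 68.1 FPKM in control replicates 1 to 5. The 2 libraries with genes of other tissues, hypoxia replicates 4 and 5, were above all controls, and hypoxia replicates 1 to 3 were not. The log2 fold change was 0.082 (SE 0.0955, limma adjusted p = 0.588) and -0.054 without hypoxia replicates 4 and 5 (adjusted p = 0.596). Without those libraries its 95% interval was 0.877- to 1.06-fold, the narrowest of the 10 genes in that fit.

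Fbn1 encodes fibrillin-1, the backbone of microfibrils, which also anchor latent TGF-β. Fbn1 (chromosome 2 from 125300594 to 125507993) was at 2.62, 2.10, 2.48, 2.41 and 2.33 FPKM in hypoxia replicates 1 to 5, against 2.59, 1.68, 1.71, 2.63 and 2.65 FPKM in control replicates 1 to 5. All hypoxia values lay inside the control range. For Fbn1 it was 0.089 on the log2 scale (SE 0.132, limma adjusted p = 0.677) and 0.094 without hypoxia replicates 4 and 5.

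Tgfb1, the signal among the 10 genes, was high in a single library. Tgfb1 (chromosome 7 from 25687002 to 25705077) was at 3.52, 3.96, 3.77, 3.89 and 17.0 FPKM in hypoxia replicates 1 to 5, against 3.53, 3.96, 3.38, 4.54 and 3.71 FPKM in control replicates 1 to 5. Hypoxia replicates 1 to 4 all lay inside the control range, and replicate 5 rested on 1563 reads where the controls had 286 to 416. This gave 0.40 as the log2 fold change, with an SE of 0.362 (limma adjusted p = 0.480), with a 95% interval of 0.757- to 2.30-fold. It was -0.0078 without hypoxia replicate 5 and -0.020 without replicates 4 and 5 (adjusted p = 0.918, 95% interval 0.849- to 1.15-fold). B cell markers in hypoxia replicate 5 summed to 356 FPKM, T cell markers to 37.3 FPKM over 5 genes and macrophage markers to 288 FPKM, against at most 1.87, 1.56 and 62.3 FPKM in controls. Their part in the Tgfb1 value was not tested.

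**Figure D4:**
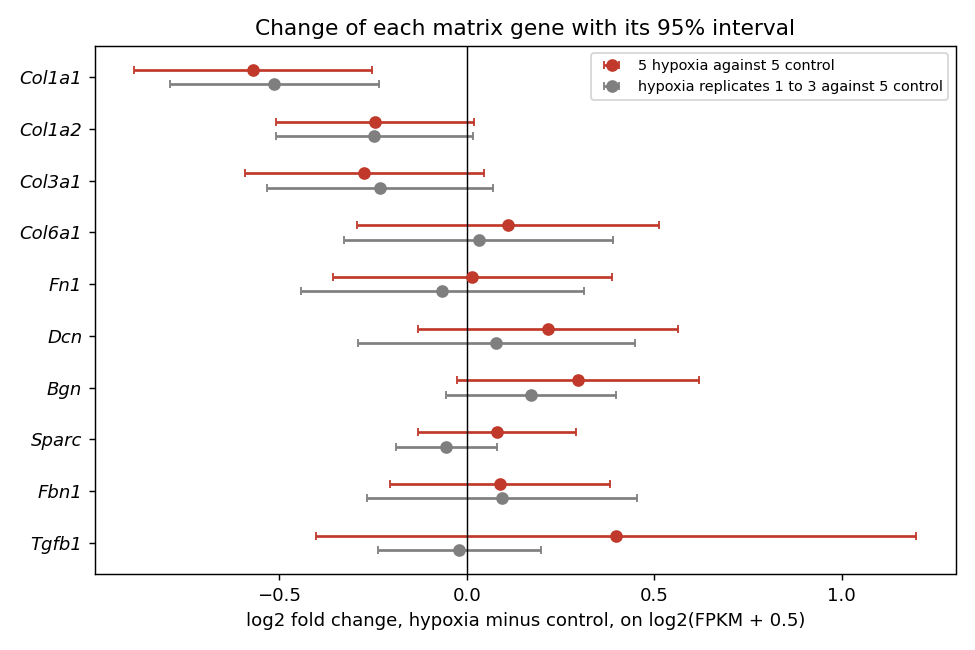
Log2 fold change (hypoxia minus control) of each gene with its limma 95% interval, from 5 hypoxia libraries (red) and from hypoxia replicates 1 to 3 (grey), each against 5 controls. Only the intervals of Col1a1 lie wholly on one side of 0, and that of Tgfb1 is 0.757- to 2.30-fold with all libraries and 0.849- to 1.15-fold without hypoxia replicates 4 and 5.

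With all libraries, the 95% intervals of 8 of the 10 genes lay below a 1.5-fold increase, those of Bgn and Tgfb1 being the exceptions, and without hypoxia replicates 4 and 5 all 10 did. In control kidneys the order per annotated base, which depends on the annotated lengths, ran from Sparc at 66.6 ± 2.15 FPKM and Bgn at 32.5 ± 3.76 FPKM down to Tgfb1 at 3.82 ± 0.456 FPKM and Fbn1 at 2.25 ± 0.510 FPKM (SD, n = 5). Col1a1 at 13.3 ± 1.97, Col3a1 at 12.7 ± 1.79 and Dcn at 12.5 ± 2.18 FPKM were neighbours within their spread in control. In hypoxia Col1a1, at 8.86 ± 1.67 FPKM, stood below Dcn (14.7 ± 2.99 FPKM). Its neighbours within their spread were Col3a1 at 10.5 ± 2.12, Col6a1 at 8.84 ± 2.62 and Col1a2 at 8.47 ± 1.26 FPKM. The spread between libraries on the log2 scale was larger in hypoxia than in control for 9 of the 10 genes, Fbn1 being the exception. The same share over all genes tested was not computed, so this count cannot be read as particular to the 10 genes.

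Profiles over the libraries were close for only some of the 10 genes. Likeness was taken as the root mean square difference of log2(FPKM + 0.5) profiles over the 10 libraries, each centred on its own mean, among all genes tested. The difference was not scaled to the spread of a gene, so genes of little spread lie close to many others. A single extreme library can also set it, so ranks do not measure whether genes varied together. Col3a1 had Col1a2 as its closest gene of all, at a difference of 0.0999, and Col1a2 had Col3a1 as its second closest after Zfp341. The closest genes to Col1a1 were Uros, which encodes an enzyme of haem synthesis, at 0.109, Chordc1, which encodes a co-chaperone of HSP90, at 0.113, and Leo1 at 0.136, and Col3a1 came sixth. Fn1 was closest to Svep1, which encodes an extracellular adhesion protein, at 0.0818, and Col6a1 to Lama4, a laminin chain, at 0.133. Tgfb1 was closest to Adam19, at 0.0791, and its closest gene among the 10, Bgn, came at rank 1041. The closest of the 10 came later still for Bgn (Fn1, rank 1706) and Sparc (Dcn, rank 4414). The nearest genes of Dcn, Bgn, Sparc and Fbn1 were Msrb3, Pde7a, Mtpap and Zbtb26, at 0.0660 to 0.0987.

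Lists of related matrix genes were read against the same shares of all genes, 3.66% higher, 7.79% lower and 29.2% with an unadjusted p under 0.05. In voom, 1709 of the 15264 genes tested passed, 782 as higher and 927 as lower. Of 10 other interstitial collagens, 0 were higher and 0 lower in limma and 0 passed in voom. An unadjusted p under 0.05 was found for 3 of them, close to the share of all genes, and the median log2 fold change was -0.10. The most abundant were Col14a1, a fibril-associated collagen, at 13.3 ± 2.63 FPKM in hypoxia and 9.97 ± 1.92 FPKM in control (log2 fold change 0.40, limma adjusted p = 0.122), and Col15a1, a collagen beside basement membranes, at 4.35 ± 1.27 FPKM in hypoxia and 6.00 ± 0.470 FPKM in control (SD, n = 5 each). Col15a1 had a log2 fold change of -0.47 (adjusted p = 0.138) with no overlap of the groups. It passed without hypoxia replicates 4 and 5, at -0.28 (adjusted p = 0.0460), and without hypoxia replicate 5 alone (adjusted p = 0.0286), and Col14a1 passed without hypoxia replicate 2 (adjusted p = 0.0454).

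Of 7 other small leucine-rich proteoglycans, 0 passed in limma or voom and 1 had an unadjusted p under 0.05 (median 0.026). Ogn, which encodes osteoglycin, was at 17.9 ± 5.03 FPKM in hypoxia and 14.7 ± 2.52 FPKM in control, and Prelp at 10.3 ± 0.895 FPKM in hypoxia and 11.9 ± 2.16 FPKM in control (SD, n = 5 each; limma adjusted p = 0.363 and 0.315). Of 10 tested genes of elastic fibres and microfibrils, of 11 listed, 0 passed in limma or voom and 3 had an unadjusted p under 0.05 (median 0.11). Among them Fbln5, an elastic fibre organiser, was at 29.4 ± 6.11 FPKM in hypoxia and 24.1 ± 3.13 FPKM in control. Eln, which encodes elastin and was chosen for mention after its values were seen, passed as lower at -0.60 without hypoxia replicates 4 and 5 (adjusted p = 0.0235), against -0.42 with all libraries (adjusted p = 0.132). Efemp1, a fibulin, was at 15.1 ± 1.76 FPKM in hypoxia and 12.7 ± 3.30 FPKM in control (adjusted p = 0.262), and it passed as higher without control replicate 4 (adjusted p = 0.0435).

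Sparcl1, which encodes a relative of SPARC, was the 1 of 9 tested matricellular and adhesive genes (of 11 listed, median 0.12) that passed, and it was higher. It was at 18.9 ± 2.22 FPKM in hypoxia and 13.8 ± 2.34 FPKM in control (log2 fold change 0.45, limma adjusted p = 0.0344). Leaving out hypoxia replicates 4 and 5 ended the call (0.36, adjusted p = 0.0968) and so did 6 of 10 fits without 1 library, hypoxia replicate 1 or 4 and control replicate 1, 2, 3 or 5, with adjusted p up to 0.0857. It was also lost with no filter on low values (adjusted p = 0.0746).

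A pair of lists covered the TGF-β pathway, with calls at about the 11.5% found over all genes. Of 14 tested ligands, receptors and latency proteins (15 listed, median 0.068), 1 was higher and 1 lower. Voom called 3 of them in either direction, against 1709 of the 15264 genes tested. Tgfbr3, which encodes the co-receptor betaglycan, was at 13.0 ± 2.21 FPKM in hypoxia and 8.62 ± 1.79 FPKM in control (log2 fold change 0.57, limma adjusted p = 0.0272). It did not pass in the fit of hypoxia replicates 1 to 3 (0.43, adjusted p = 0.0669), or without hypoxia replicate 4 or control replicate 1, 2, 3 or 5 alone (adjusted p up to 0.0723), or with no filter on low values (adjusted p = 0.0601).

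Itgb6, which encodes an integrin chain that with its αv partner releases TGF-β from its latent form, was at 8.82, 8.52, 10.8, 12.04 and 3.67 FPKM in hypoxia replicates 1 to 5, against 17.7, 14.8, 16.6, 19.9 and 16.1 FPKM in control replicates 1 to 5. The groups did not overlap. Its log2 fold change was -1.003 (limma adjusted p = 0.0312) and -0.83 without hypoxia replicates 4 and 5 (adjusted p = 0.00262). The call was lost without hypoxia replicate 1 and without each control replicate in turn (adjusted p up to 0.0753), and with no filter on low values (adjusted p = 0.0691). Its partner chain Itgav, chosen for mention after its values were seen, was at 19.5 ± 2.58 FPKM in hypoxia and 18.9 ± 1.55 FPKM in control (adjusted p = 0.804).

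Of 11 SMADs and targets of TGF-β (median 0.067), 1 was higher and 0 lower. Bambi, which encodes a decoy receptor that dampens TGF-β signalling, was at 1.75 ± 0.317 FPKM in hypoxia and 0.971 ± 0.264 FPKM in control (log2 fold change 0.62, limma adjusted p = 0.0268), and 0.69 without hypoxia replicates 4 and 5 (adjusted p = 0.0211). Its call was lost without hypoxia replicate 1 or 3 or control replicate 1, 2, 3 or 5 (adjusted p up to 0.0720 in these fits), and with no filter on low values (adjusted p = 0.0542). Smad7, which encodes an inhibitory SMAD and was chosen for mention after its values were seen, had a log2 fold change of 0.025 (adjusted p = 0.906).

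Among 14 tested matrix proteases and inhibitors (15 listed, median -0.066), 1 was lower and 0 higher. Timp3, which encodes a metalloprotease inhibitor that stays bound to the matrix, was at 150.5, 127.9, 141.2, 123.8 and 77.6 FPKM in hypoxia replicates 1 to 5, against 196.8, 202.6, 175.4, 188.8 and 232.4 FPKM in control replicates 1 to 5. No hypoxia value reached the lowest control. The log2 fold change was -0.71 (limma adjusted p = 0.0256), and -0.51 without hypoxia replicates 4 and 5 (adjusted p = 0.0146). The call was lost without hypoxia replicate 4 or control replicate 1, 2 or 5 (adjusted p up to 0.0647 in these fits), and with no filter on low values (adjusted p = 0.0536).

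Several genes whose products fold and modify collagen were lower. Of 12 collagen processing enzymes, 5 were lower and 0 higher, with a median of -0.43, where 7.79% of all genes were lower and 3.66% higher and the median was 0.012. Voom called 7 of them in either direction, against 1709 of the 15264 genes tested (782 higher, 927 lower). The lower genes were Serpinh1, which encodes the collagen chaperone HSP47, at 33.7 ± 4.65 FPKM in hypoxia and 60.5 ± 1.998 FPKM in control, P4ha1, P4ha2, Plod1 and Plod2, hydroxylases of collagen proline and lysine. Serpinh1 had a log2 fold change of -0.84 (limma adjusted p = 0.000838), P4ha1 of -0.87 (adjusted p = 0.00117) and Plod1 of -0.45 (adjusted p = 0.00502). The groups overlapped in none of these 3, as for 14.2% of all genes (5.68% higher, 8.54% lower), and each kept its call in all 20 alternatives. The log2 fold change was above 0 for 2 of the 12. Bmp1, chosen for mention after its values were seen, was higher without overlap, at 1.59 ± 0.0987 FPKM in hypoxia and 1.21 ± 0.137 FPKM in control. It did not pass (log2 fold change 0.29, limma adjusted p = 0.0764). The difference between this list and the collagen genes was not tested, and this list was chosen with results for P4ha1 known.

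Of 7 tested receptors of collagen and fibronectin, of 9 listed, 0 passed in limma or voom and 1 had an unadjusted p under 0.05 (median 0.097). The most abundant were Sdc4, a syndecan, at 110.6 ± 21.6 FPKM in hypoxia and 134.2 ± 10.9 FPKM in control (limma adjusted p = 0.200), and Itgb1, the shared β1 integrin chain, at 89.3 ± 3.19 FPKM in hypoxia and 95.2 ± 4.02 FPKM in control (SD, n = 5 each; adjusted p = 0.381).

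**Figure D5:**
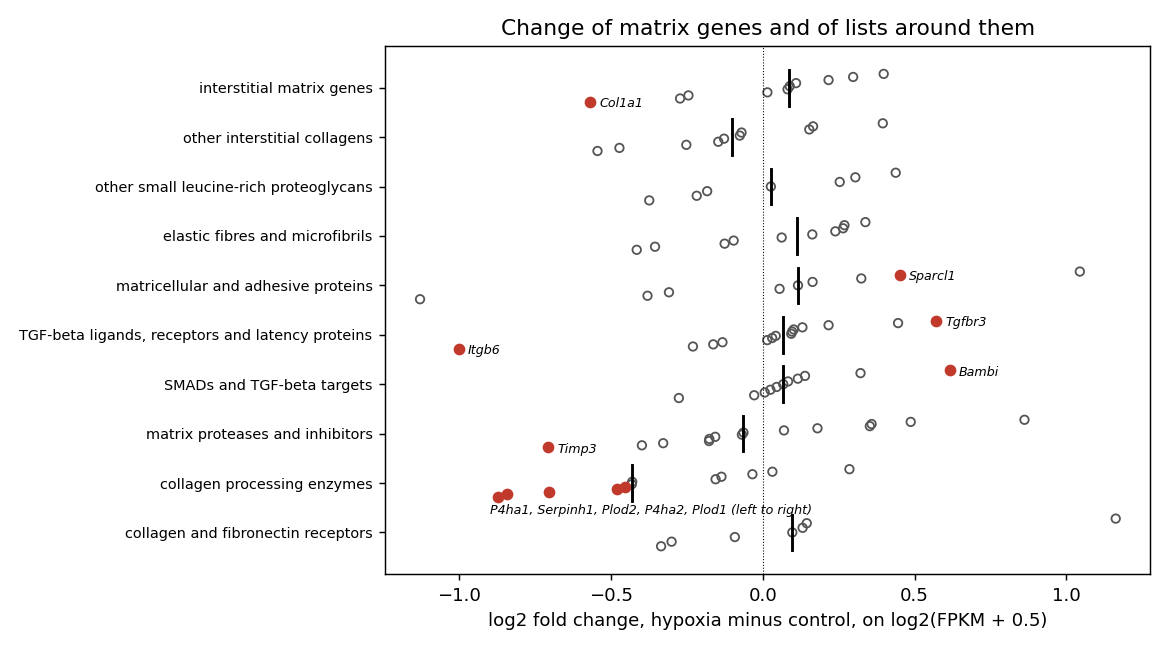
Log2 fold change (hypoxia minus control, 5 libraries each) of every tested gene of each list, with filled red points for genes past an adjusted p of 0.05 and black bars at list medians. The interstitial matrix genes scatter around 0 with Col1a1 as their single call, and the collagen processing enzymes hold 5 lower genes and a median of -0.43.

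Markers of the cells that make interstitial matrix did not pass. Fibroblast markers summed to 31.4 to 51.6 FPKM in hypoxia, with the highest value in replicate 5, and to 25.9 to 40.7 FPKM in control. In hypoxia replicate 5 the marker Thy1 alone was at 10.8 FPKM, against 0.404 to 1.34 FPKM in the other libraries. T cell markers summed to 37.3 FPKM in that library, against at most 1.56 FPKM in controls, and the part of T cells in the Thy1 value was not tested. Of the fibroblast markers, 0 of 7 tested, of 9 listed, passed in limma, with 1 at an unadjusted p under 0.05. Markers of myofibroblasts and smooth muscle summed to 21.8 to 44.0 FPKM in hypoxia and 23.6 to 37.8 FPKM in control, with 0 of 5 tested passing, of 6 listed, and 0 at an unadjusted p under 0.05. The groups overlapped in both sums. Endothelial markers also overlapped, at 129.7 to 148.7 FPKM in hypoxia and 134.3 to 180.5 FPKM in control over 6 genes.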

How the data were processed

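The authors deposited 1 table of FPKM values with gene names, coordinates and biotypes, and gene length in bases, which served to recover reads. The submitters' processing notes name the aligner HISAT2 2.0.5 and hg38, a human build. Gene identifiers are murine, though: 55141 occur in a GRCm38 annotation, 99.4% with identical coordinates. Counting tool and strand use: not given in the sources used here. Other genes overlap the loci of Col1a2, Col3a1, Fn1 and Fbn1, with at most 3 reads in any library.

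FPKM times gene length gave whole reads (tolerance 0.05) for 100% of values, 16561672 to 17845464 per library. Values were used as deposited. Every gene averaging 0.5 FPKM or more entered a limma fit (version 3.58.1, R 4.3.3; eBayes with trend and robust; two-sided) of log2(FPKM + 0.5) on group, with Benjamini-Hochberg adjustment. The scale understates changes of low genes. Intervals are limma's, at 95%. Alternatives were other pseudocounts, filters and scalings, limma voom on the recovered reads, a replicate block, and fits without 1 library or without hypoxia replicates 4 and 5. Whether each library is a separate mouse is not labelled, hence p-values reflect only the spread among libraries, which may be technical, and no 2 libraries of a group agreed within sampling noise. Marker genes named on more than 1 row were left out. The genes and lists were chosen with earlier results of these data known. Named were the 10 genes and, from each list, up to 3 genes with the smallest p past the threshold, or otherwise the 2 most abundant, with the 3 genes closest to each of the 10 in profile. Python 3.11.15 and matplotlib 3.10.9 drew the figures.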

Additional observations from a re-analysis of the deposited data

Results flagged for a closer look

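In groups of 5 libraries, a value was taken as far from the others when its gap to the nearest one exceeded 0.71 of the group's range (Dixon's 95% value), a test that chance passes in about 1 of 20 groups. Of 52 groups (26 genes in hypoxia and in control), 6 held such a value. Tgfb1 was at 17.0 FPKM in hypoxia replicate 5, where the other hypoxia libraries had 3.52 to 3.96 FPKM. Bgn was at 58.2 FPKM in hypoxia replicate 5, where the others had 32.7 to 39.1 FPKM, and at 39.0 FPKM in control replicate 4, where the other controls had 29.5 to 31.9 FPKM. Col15a1 was lowest in hypoxia replicate 5, at 2.11 FPKM against 4.55 to 5.16 FPKM in the other hypoxia libraries. Control replicate 4 was also far from the other controls for Tgfbr3, at 11.8 FPKM against 7.70 to 7.96 FPKM, and for Bambi, at 1.43 FPKM against 0.765 to 0.903 FPKM. Urothelium markers summed to 35.7 FPKM in that library, against 6.87 to 15.8 FPKM in the other controls. Tgfbr3 and Bambi kept their calls without it, and the part of urothelium in these values was not tested.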

How the results depend on the processing

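Over 20 alternatives, the 10 genes gave 180 of 200 values with the same direction and side of the threshold, and Col1a1 kept its call in 9 of its 20. Most of the 180 belong to genes without a call to lose, so that total does not measure how stable a call was. The count of passing genes among the 10, which was 1, fell to 0 with no filter on low values, with rescaling without the 100 most abundant genes, with limma voom on recovered reads and with the replicate number as a block, and was 0 to 1 in the fits without 1 library. Col1a1 had an unadjusted p of 0.00236 with all libraries, and its adjusted p was 0.0683 with no filter, where 30650 genes were tested. The calls of Sparcl1, Tgfbr3, Itgb6, Bambi and Timp3 were lost there too, at adjusted p of 0.0746, 0.0601, 0.0691, 0.0542 and 0.0536. Signs turned without hypoxia replicates 4 and 5 for Fn1 (-0.065), Sparc (-0.054) and Tgfb1 (-0.020). In the fits without 1 library, log2 fold changes ran from -0.096 to 0.10 for Fn1, from -0.030 to 0.19 for Col6a1 and from -0.0078 to 0.52 for Tgfb1.

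Over all genes, 1748 passed, 559 higher and 1189 lower. The split was 919 higher and 770 lower with rescaling without the 100 most abundant genes, and 782 higher and 927 lower with voom. The median log2 fold change over all genes tested moved from 0.012 to 0.076 with that rescaling and to 0.081 with voom. The library size implied by FPKM was 0.998 to 1.10 times the recovered reads in hypoxia and 0.949 to 1.03 times in control. The shares of higher and lower genes thus depend on scaling. The count was 966 with no filter and 999 with the replicate block, and 824 to 2724 in fits without 1 library. It was 824, 864, 947 and 1016 without control replicates 1, 2, 3 and 5, 1053 without hypoxia replicate 4 and 2724 without hypoxia replicate 5, and the cause was not tested.

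Replicate numbers are shared by the groups, but the deviations of same-numbered libraries correlated only at -0.0771 to 0.0861 across genes. No pairing by number was thus seen, although such correlations cannot exclude a weak one. With the replicate block, Col1a1 had an adjusted p of 0.0563, Bambi of 0.0999 and Timp3 of 0.0805.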
